A study of Rattus norvegicus with 12 samples.

Results

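The genes of cholesterol synthesis, lipoprotein and cholesterol uptake, sterol sensing and cholesterol transport were followed in F11 cells after forskolin. They were taken as a list of 33 named genes, in pathway order, matched to the gene names of the array (older names included, such as Sc4mol for Msmo1). All 33 had a probe, among 35524 genes or unnamed transcripts on the array. Of these, 31 passed the filter on dim probes, among 17803 genes in all that passed it. Abcg1, an exporter of cholesterol, and Soat1, which esterifies cholesterol for storage, were not well above background on any array in either channel and have no value here. The 31 measured members are 8 enzymes from acetoacetyl-CoA to geranylgeranyl diphosphate, 11 enzymes from squalene to cholesterol, 2 lipoprotein receptors, 5 sterol-sensing genes and 5 genes of transport and efflux.

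F11 cells come from a fusion of mouse neuroblastoma cells with neurons of rat dorsal root ganglia, and whether mouse transcripts hybridised to these rat probes was not tested. The cells, all of this 1 line, were held for 3 h in DMEM with 0.5% FCS and antibiotics and then given 10 µM forskolin, an activator of adenylyl cyclase, for 2, 4, 24 or 48 h, with 3 samples per time. Each sample was labelled with Cy3 and hybridised to a rat array against a common Cy5 reference, made from F11 cells that had spent 3 h in that medium and got no forskolin. No array held unstimulated cells kept for a matching time, so hours in low serum and hours of forskolin cannot be told apart. Dyes were not swapped: a gene-specific dye effect stays in each ratio to the reference and, if the same on every array, cancels between times. Nothing in the labels says that the replicates were separate cultures, so the spread behind each p-value is that of these samples and may be technical.

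Of 11 neuronal markers, 10 were well above background in both channels on all 12 arrays (Tubb3, Prph, Nefl, Nefm, Uchl1, Stmn2, Gap43, Th, Chga and Isl1), whereas the sensory neuron factor Pou4f1 was so on 3 forskolin and 1 reference channels. Of 7 glial markers 1 (Sox10) and of 5 fibroblast markers 2 (Col1a1 and Col1a2) reached that, against 0 of 5 leukocyte and 0 of 3 endothelial markers, and Gfap, S100b, Dcn, Lum, Aif1 and Pecam1 were well above background in no channel of any array. Between 19889 and 21973 of the 43379 non-control spots per array exceeded background clearly in Cy3, and between 19504 and 23285 in Cy5. Of the 31 measured members, 28 were well above background in both channels on all 12 arrays; the others were Srebf2, Stard4 and Abca1. The precision is limited by the 3 arrays per time.

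Cells make cholesterol from acetyl-CoA. Enzymes of the mevalonate pathway build isoprenoids, squalene synthase joins farnesyl units to squalene, and a chain of oxidations, demethylations and reductions turns squalene into cholesterol. When sterols in the endoplasmic reticulum are low, the SCAP protein carries SREBP transcription factors to the Golgi, where they are cut and released to switch on these enzymes; INSIG proteins hold the complex back when sterols are high. Neurons also take up cholesterol in lipoproteins, much of it bound to apolipoprotein E, and cholesterol is a main component of growing axon membrane.

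The upstream sequence of 6 members is shown, chosen by rank or by letters. Msmo1, Hmgcs1, Fdps and Insig1 had the 4 highest ratios to the reference among the members at 24 h. Cyp51 had the highest at 2 h and at 4 h. These ranks are by each gene's brightest probe after loess, with an offset of 50 added to the intensities, and other settings changed them. Srebf2 was 1 of 2 members with the sterol element letters searched for. Each run is the 250 bases before the gene's start, 5′ to 3′ on the gene's strand, from RefSeq on build GRCr8, and 27 of the 33 members had an entry. Capitals mark matches, on either strand, to TCACNCCA (part of the sterol regulatory element), TGACG (the core of the cyclic AMP response element), CCAAT (the NF-Y box) and GGGCGG (the GC box bound by Sp1).
Msmo1, chr16:29746863-29747112, plus strand: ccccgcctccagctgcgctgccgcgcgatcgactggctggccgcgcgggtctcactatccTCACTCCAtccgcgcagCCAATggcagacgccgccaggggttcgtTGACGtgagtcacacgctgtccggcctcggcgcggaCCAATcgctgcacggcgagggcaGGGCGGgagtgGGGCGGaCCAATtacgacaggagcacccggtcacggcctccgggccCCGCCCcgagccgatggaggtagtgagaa
Hmgcs1, chr2:53382054-53382303, plus strand: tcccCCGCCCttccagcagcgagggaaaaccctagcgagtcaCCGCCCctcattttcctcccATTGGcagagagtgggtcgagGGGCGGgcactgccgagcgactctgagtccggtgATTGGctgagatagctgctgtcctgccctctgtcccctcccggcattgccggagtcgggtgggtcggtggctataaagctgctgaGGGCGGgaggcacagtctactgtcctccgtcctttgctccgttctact
Fdps, chr2:176804817-176805066, minus strand: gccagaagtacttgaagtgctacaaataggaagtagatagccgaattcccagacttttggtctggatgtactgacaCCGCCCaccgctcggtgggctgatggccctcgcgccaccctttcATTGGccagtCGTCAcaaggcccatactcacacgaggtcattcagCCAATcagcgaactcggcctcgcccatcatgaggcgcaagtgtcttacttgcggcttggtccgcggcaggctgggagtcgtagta
Insig1, chr4:8057770-8058019, minus strand: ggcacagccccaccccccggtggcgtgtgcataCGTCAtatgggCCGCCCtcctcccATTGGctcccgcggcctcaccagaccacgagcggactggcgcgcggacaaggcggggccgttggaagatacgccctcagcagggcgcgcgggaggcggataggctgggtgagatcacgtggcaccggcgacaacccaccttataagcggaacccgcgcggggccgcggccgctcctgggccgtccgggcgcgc
Cyp51, chr4:30991443-30991692, plus strand: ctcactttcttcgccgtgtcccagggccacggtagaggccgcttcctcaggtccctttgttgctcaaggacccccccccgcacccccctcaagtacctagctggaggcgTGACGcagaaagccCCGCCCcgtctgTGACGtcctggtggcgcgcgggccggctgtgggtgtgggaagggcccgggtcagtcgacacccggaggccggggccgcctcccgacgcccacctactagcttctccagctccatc
Srebf2, chr7:115543057-115543306, plus strand: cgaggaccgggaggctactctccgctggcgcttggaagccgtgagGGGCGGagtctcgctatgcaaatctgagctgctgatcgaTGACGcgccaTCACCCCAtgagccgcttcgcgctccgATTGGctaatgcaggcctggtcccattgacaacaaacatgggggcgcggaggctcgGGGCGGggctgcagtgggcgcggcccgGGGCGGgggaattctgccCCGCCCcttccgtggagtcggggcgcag
TCACNCCA was found before 2 of 27 members, Msmo1 and Srebf2, and before 3.24% of all 33469 promoters in the table. The full cyclic AMP element TGACGTCA, which contains TGACG on both strands, was found before 0 of 27 members and 1.59% of all. TGACG was found before 11 members, among them Fdps, Cyp51, Msmo1 and Insig1, and before 18.2% of all promoters. CCAAT was found before 20 members, against 34.0% of all, and GGGCGG before 23, against 30.5% of all. Among the 8153 promoters of genes tested here, which are richer in GC boxes, the shares were 2.62% for TCACNCCA, 2.93% for TGACGTCA, 28.6% for TGACG, 35.5% for CCAAT and 57.7% for GGGCGG. A match is a description of the letters and not a bound site.

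Cholesterol synthesis genes were raised late. In these bulk samples, fewer or more cells of a kind and a change of RNA per cell cannot be told apart. Values are log2 forskolin/reference ratios, by array or as the mean ± SD over n = 3 arrays, and a gene was called higher or lower at a Benjamini-Hochberg adjusted p under 0.05 in limma, adjusted over all genes tested. At 2 h, 3 of 31 members were called higher and 9 lower, where 9.99% of all genes tested were called higher and 18.3% lower. Of these 3, Abca1 was well above background in neither channel on any 2 h array. At 4 h the members' counts were 11 higher and 7 lower (all genes 19.5% and 30.1%). At 24 h they were 21 higher and 3 lower (all genes 24.1% and 29.2%), and at 48 h 23 higher and 3 lower (26.9% and 30.3%). The members were chosen with earlier results of these data known, so their comparison with all genes is not independent of these data. The members' median moved from -0.08 at 2 h through 0.04 at 4 h to 0.40 at both 24 h and 48 h, beside -0.02, -0.03, -0.02 and -0.02 over all genes. The count at 2 h depended on single arrays: 5 members were called without the third replicate of that time, 7 without the first and 8 without the second, in place of 12.

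Most of the rise lay between 4 and 24 h. Between these times, 20 members were called higher and 2 lower, where 21.0% of all genes were called higher and 17.8% lower, and the members' median difference was 0.36 against 0.00 over all genes. From 2 to 4 h, 9 members were called higher and 3 lower (all genes 5.55% and 10.1%). From 24 to 48 h, 5 were called higher and 1 lower (all genes 8.00% and 6.79%). With the late times (24 and 48 h) averaged and set against the early ones (2 and 4 h), 22 were called higher and 2 lower (all genes 26.2% and 24.2%). An F test among the 4 times called 26 of 31 members and 53.3% of all genes; the 5 not called were Hsd17b7, Lrp8, Srebf2, Stard4 and Npc1. A dye effect that is the same on every array cancels in these differences between times, whereas one that differs between arrays does not. Each time also lay at its own position on the slide, so that time and array position cannot be told apart.

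**Figure D1:**
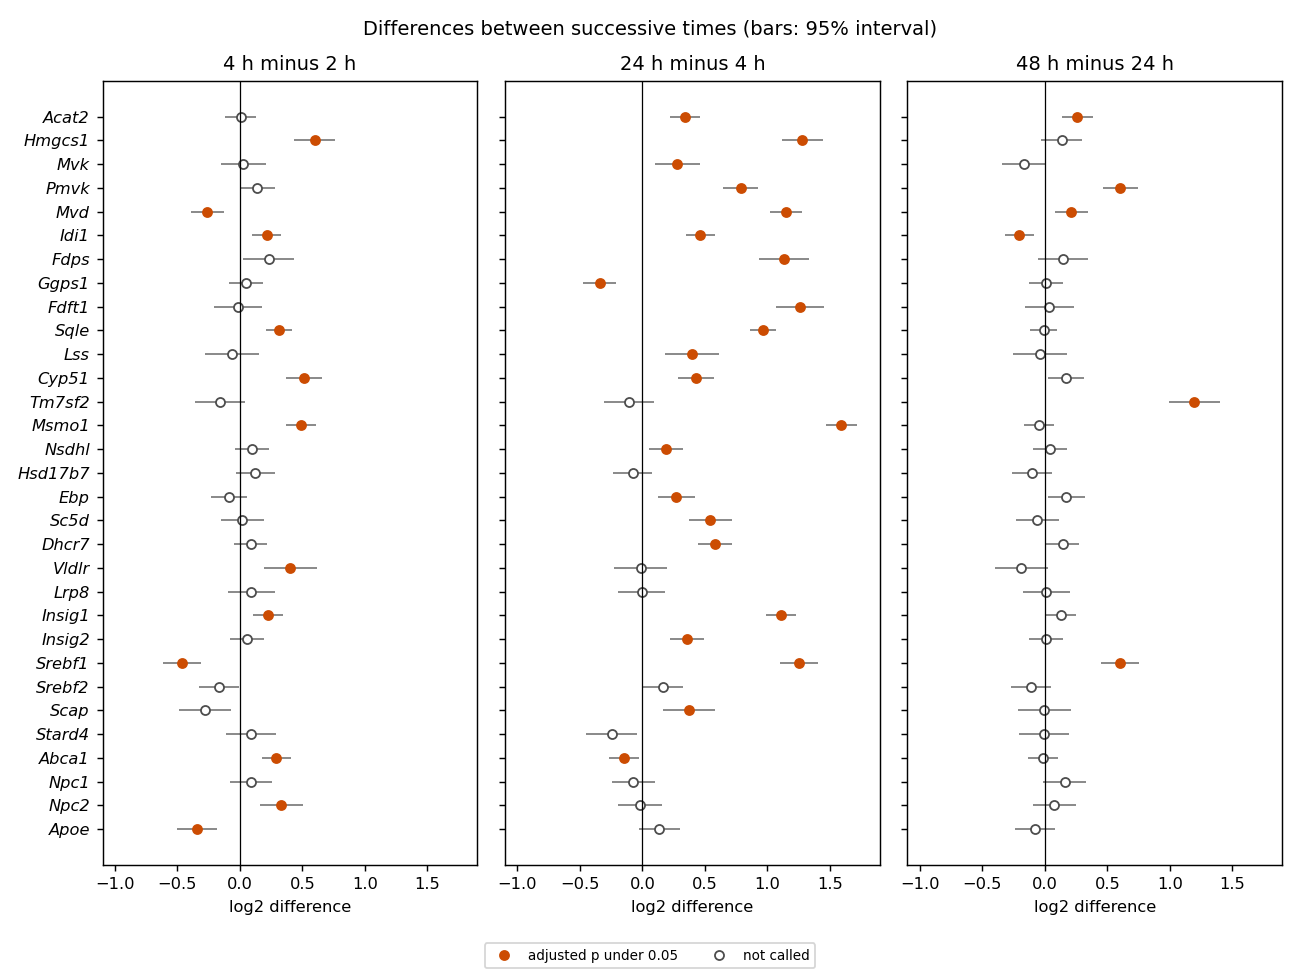
Differences between successive times for the 31 measured members (log2 difference, x axis; members in pathway order, y axis; bars are 95% intervals from the fit, filled points an adjusted p under 0.05). From 4 to 24 h, 20 members were called higher and 2 lower (all genes 21.0% and 17.8%). From 24 to 48 h, 5 were called higher and 1 lower (all genes 8.00% and 6.79%).

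Directions against the reference depended on how the arrays were scaled. Without loess, bright probes lean towards Cy5 on these arrays. Centring every array on its median alone put the all-gene median at -0.58, -0.58, -0.45 and -0.46 at the 4 times, and many members with bright probes changed sign. In that scaling the members' calls were 1 higher and 26 lower at 2 h and again at 4 h. They were 6 higher and 14 lower at 24 h, and 8 higher and 12 lower at 48 h. The shares of all genes called higher and lower in that scaling were 1.26% and 75.9% at 2 h and 1.84% and 76.2% at 4 h. These shares were 3.02% and 69.8% at 24 h, and 4.06% and 69.8% at 48 h. Of the 24 members called at 24 h, 15 kept their direction under each of the 5 other scalings tried and 22 kept it relative to the median of all genes; Acat2 and Srebf1 did not. Of the 26 called at 48 h, 14 kept it and 22 did so relative to that median, all but Acat2, Idi1, Tm7sf2 and Ebp. At 4 h, 9 of 18 kept it and 11 did so relative to the median. The 40 called differences between successive times (12, 22 and 6) kept their sign under every alternative that gave a value. With median centring, however, the calls fell to 1 from 2 to 4 h, 15 from 4 to 24 h and 2 from 24 to 48 h. Of all genes, 15.0% were then called higher and 3.87% lower from 4 to 24 h. Where a member's called direction against the reference turned with median centring, that value is given beside it. Some calls were lost in that scaling without a turn of sign. At 24 h these were Mvk (0.14), Pmvk (0.065), Sqle (0.14), Lss (0.09), Cyp51 (0.15) and Vldlr (0.14), with adjusted p from 0.11 to 0.53. At 48 h they were Sqle (0.07), Lss (0.11) and Srebf1 (0.07), with adjusted p from 0.24 to 0.55. At 4 h Vldlr lost its call (0.035, adjusted p = 0.71).

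**Figure D2:**
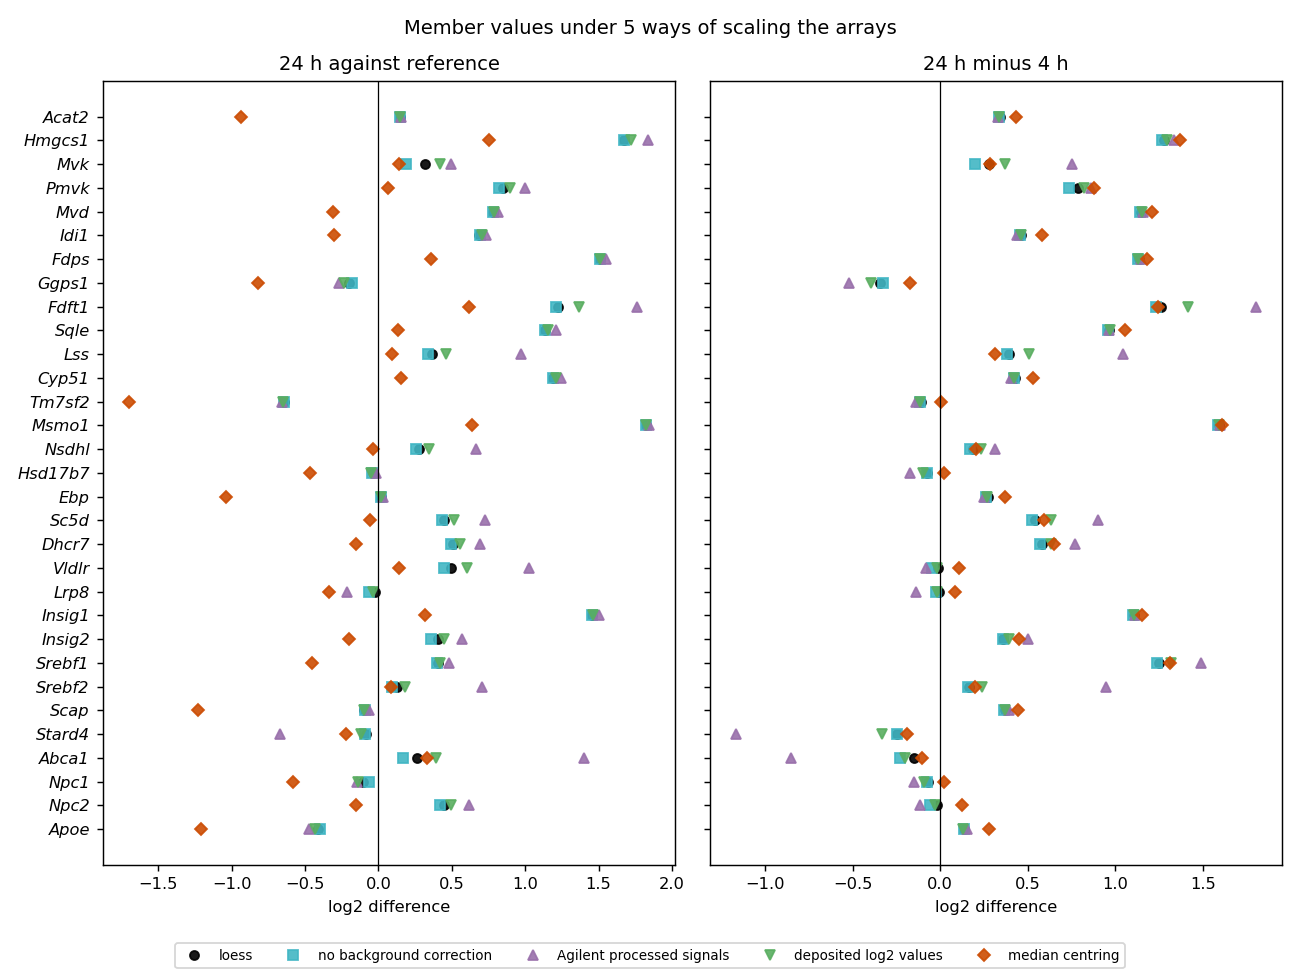
Values of the 31 members at 24 h against the reference (left) and for 24 h minus 4 h (right), as log2 differences under 5 scalings, with members in pathway order. Median centring moves the left-hand values down, as for Mvd from 0.78 to -0.31, while each of the 22 members called between 4 and 24 h stays on its side of 0 in the right-hand panel.

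Among the enzymes, 15 of 19 were called higher and 2 lower at 24 h (all genes 24.1% and 29.2%), and 17 higher and 2 lower at 48 h (26.9% and 30.3%). With median centring these counts were 4 higher and 7 lower at 24 h (all genes 3.02% and 69.8%). At 48 h they were 6 and 6 (all genes 4.06% and 69.8%). From 4 to 24 h 16 enzymes were called higher and 1 lower after loess (all genes 21.0% and 17.8%). With median centring the counts in that step were 12 and 0 (all genes 15.0% and 3.87%). The median of the 19 enzymes after loess was 0.51 at 24 h and 0.55 at 48 h. The lower ones were Ggps1 and Tm7sf2 at 24 h and Ggps1 and Hsd17b7 at 48 h.

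In the mevalonate segment, Hmgcs1, the cytosolic HMG-CoA synthase that makes the substrate of the pathway's rate-limiting reductase, gave log2 ratios of -0.18, -0.22 and -0.21 at 2 h, 0.39, 0.39 and 0.41 at 4 h, 1.57, 1.68 and 1.76 at 24 h, and 1.62, 1.86 and 1.94 at 48 h. Its 2 h arrays all lay below 0, and the 24 and 48 h arrays overlapped each other far above the 4 h ones. The ratio was 3.19-fold at 24 h (adjusted p = 2.6e-11) and 3.50-fold at 48 h. It rose by 0.60 (SE 0.08, adjusted p = 0.00011) from 2 to 4 h and by 1.28 (SE 0.08, adjusted p = 1.7e-08) to 24 h; the mean at 4 h, 0.40, became -0.62 with median centring. The lower value at 2 h lost its call without the second or the third replicate (adjusted p = 0.07 each). A second, much dimmer Hmgcs1 probe gave -0.01, 0.24, 0.67 and 0.65 at 2, 4, 24 and 48 h. The brighter probe lies at chr2:51682653-51682711 of build rn3 in the files and the dimmer one at chr2:51680037-51680096.

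Acat2, which joins acetyl-CoA units at the entry of the pathway, was lower at 2 h (-0.20 ± 0.04) and 4 h (-0.20 ± 0.03) and higher at 48 h (0.40 ± 0.06; -0.73 with median centring). Its 24 h mean of 0.14 ± 0.07 was called higher (adjusted p = 0.0076, and 0.08 without the third replicate) and became -0.94 with median centring. Between times, it rose by 0.34 (SE 0.06) from 4 to 24 h and by 0.26 (SE 0.06) from 24 to 48 h. Rat has a closely related copy, Acat3, so the Acat2 signal may include it.

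The kinases and the decarboxylase that follow differed in timing. Mvk, mevalonate kinase, reached 0.31 ± 0.17 at 24 h and 0.15 ± 0.08 at 48 h, the latter -0.05 with median centring and not called without any 1 of its own 3 arrays (adjusted p = 0.055 to 0.23). Its difference from 4 to 24 h (0.28, SE 0.08, adjusted p = 0.015) lost its call without the third 24 h array (0.078). Pmvk, phosphomevalonate kinase, gave -0.16, 0.04 and -0.13 at 2 h, -0.00, 0.05 and 0.13 at 4 h, 0.83, 0.80 and 0.91 at 24 h, and 1.51, 1.42 and 1.42 at 48 h. The 4 and 24 h arrays did not overlap, nor did the 24 and 48 h ones. Pmvk was 2.73-fold above the reference at 48 h (adjusted p = 1.1e-11) and continued to rise by 0.60 (SE 0.07, adjusted p = 2.9e-05) from 24 to 48 h. Mvd, mevalonate diphosphate decarboxylase, gave -0.16, -0.05 and -0.11 at 2 h, -0.40, -0.37 and -0.33 at 4 h, 0.67, 0.85 and 0.82 at 24 h, and 0.96, 0.98 and 1.03 at 48 h. Its arrays lay below 0 at 4 h and above 0 later. Mvd fell by 0.26 (SE 0.06, adjusted p = 0.0097) from 2 to 4 h, then rose by 1.15 (SE 0.06, adjusted p = 5.2e-09) to 24 h; against the reference its late values became -0.31 at 24 h and -0.15 at 48 h with median centring.

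Idi1, which isomerises isopentenyl diphosphate, gave 0.04, -0.03 and 0.03 at 2 h, 0.17, 0.30 and 0.20 at 4 h, 0.69, 0.69 and 0.68 at 24 h, and 0.47, 0.47 and 0.51 at 48 h. Its highest time was 24 h, with no overlap with 48 h. It rose by 0.46 (SE 0.05) from 4 to 24 h and fell by 0.20 (SE 0.05, adjusted p = 0.019) from 24 to 48 h, the only member called lower in that step; that call was lost without any 1 of the 24 h arrays (adjusted p = 0.052 to 0.055) or without the second 48 h array (0.065). With median centring its means were -0.88 at 4 h, -0.30 at 24 h and -0.54 at 48 h. A second Idi1 probe gave -0.08, 0.21, 0.50 and 0.30 at the 4 times, and its near copy Idi2 may share in the signal.

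Fdps, farnesyl diphosphate synthase, gave 0.01, 0.16 and 0.26 at 2 h, 0.34, 0.37 and 0.41 at 4 h, 1.43, 1.48 and 1.61 at 24 h, and 1.87, 1.60 and 1.48 at 48 h. All 4 h arrays lay below all late ones, and the 24 and 48 h arrays overlapped. It was 2.84-fold above the reference at 24 h (adjusted p = 4.1e-10) and rose by 1.13 (SE 0.09, adjusted p = 3.9e-07) from 4 to 24 h; the 4 h mean of 0.37 became -0.82 with median centring. A second probe gave 0.03, 0.29, 1.28 and 1.45 at the 4 times. The array also carries probes for processed copies of Fdps, so its signal may not be of this gene alone. Ggps1, which draws farnesyl diphosphate off to geranylgeranyl diphosphate, went the other way. It was 0.14 ± 0.06 at 4 h, -0.20 ± 0.08 at 24 h and -0.19 ± 0.07 at 48 h. The 4 h mean became -0.65 with median centring, and its call was lost without the first (adjusted p = 0.055) or the third replicate (0.13). Ggps1 fell by 0.34 (SE 0.06, adjusted p = 5.7e-04) from 4 to 24 h.

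**Figure D3:**
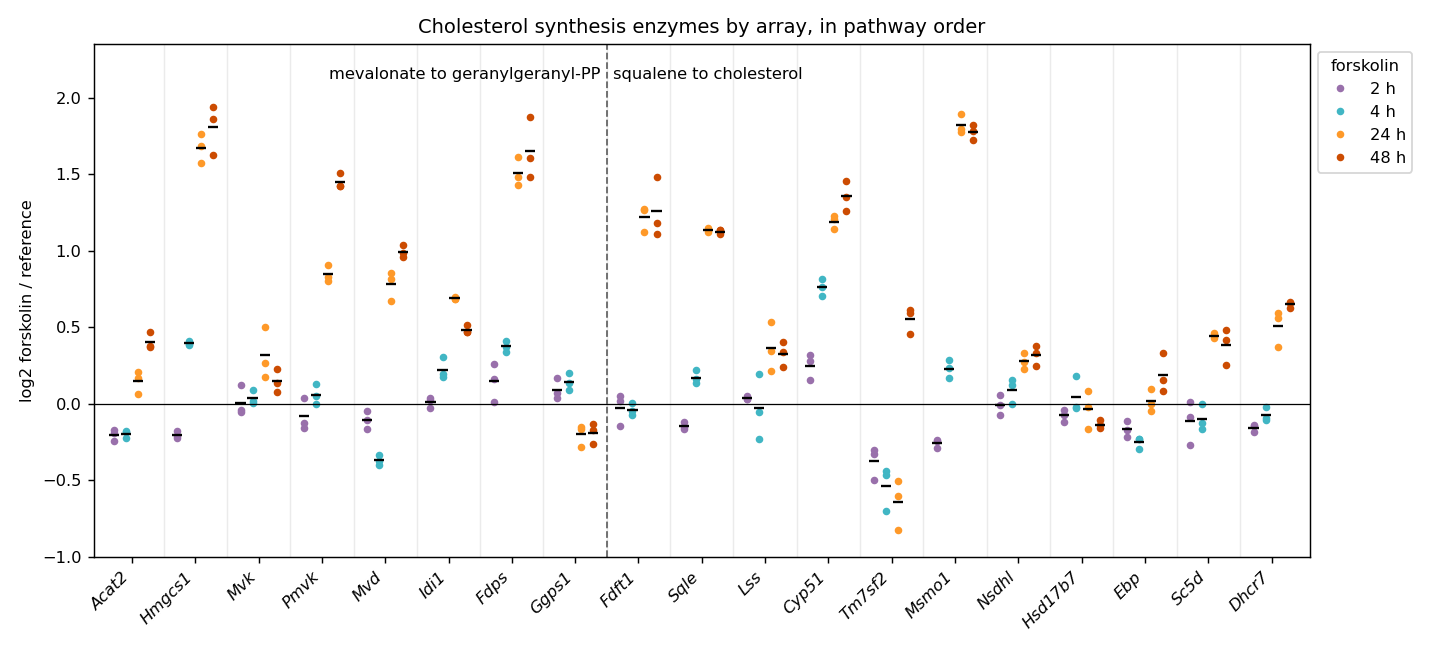
Log2 ratio of forskolin over reference (y axis) for the 19 enzymes in pathway order (x axis), with 1 point per array, coloured by time, and a bar at the mean of 3 arrays. The 24 and 48 h points of Hmgcs1, Fdps, Fdft1, Sqle, Cyp51 and Msmo1 all lie above 1, while Ggps1 lies below 0 at these times.

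Past the branch, Fdft1, squalene synthase and the committed step to sterols, gave 0.02, -0.14 and 0.05 at 2 h, -0.05, -0.07 and 0.01 at 4 h, 1.12, 1.27 and 1.27 at 24 h, and 1.48, 1.18 and 1.11 at 48 h. Early arrays lay around 0 and late ones overlapped each other above 1. It was 2.33-fold above the reference at 24 h and rose by 1.26 (SE 0.09, adjusted p = 8.9e-08) from 4 to 24 h. Agilent's processed signals gave a larger log2 ratio of 1.76 for Fdft1 at 24 h, above Fdps (1.55) and Insig1 (1.51) in that setting. Sqle, squalene monooxygenase, a rate-limiting enzyme of the later pathway, gave -0.12, -0.15 and -0.16 at 2 h, 0.22, 0.14 and 0.16 at 4 h, 1.14, 1.15 and 1.12 at 24 h, and 1.13, 1.11 and 1.13 at 48 h. Its spread was small, with SDs of 0.01 and 0.02 (n = 3) at the late times, whose arrays overlapped. The lower value at 2 h lost its call without the third replicate (adjusted p = 0.059), and the late values lost theirs with median centring (0.14 at 24 h, adjusted p = 0.19; 0.07 at 48 h, adjusted p = 0.48). Sqle rose by 0.31 (SE 0.05, adjusted p = 0.00064) from 2 to 4 h and by 0.96 (SE 0.05, adjusted p = 3.9e-09) to 24 h; its 4 h mean of 0.17 became -0.92 with median centring. Lss, lanosterol synthase, was 0.37 ± 0.16 at 24 h and 0.33 ± 0.08 at 48 h. Its probe was dim, and Agilent's processed signals, which have no offset added, gave 0.97 at 24 h.

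Cyp51, lanosterol 14-alpha-demethylase, had among the highest early ratios of the members after loess. It gave 0.28, 0.15 and 0.31 at 2 h, 0.77, 0.70 and 0.82 at 4 h, 1.21, 1.14 and 1.23 at 24 h, and 1.46, 1.35 and 1.26 at 48 h, with no overlap between successive times. By each gene's brightest probe after loess, its mean was the highest of all members at 2 h (0.25) and at 4 h (0.76). However, other probes of Insig1 were higher, and Abca1 has no bound at 2 h and only a lower bound at 4 h. The rank at 4 h also depended on the setting. There Vldlr lay above Cyp51 with Agilent's processed signals (1.11 against 0.84) and with an offset of 0 (0.87 against 0.82). Vldlr was also higher at 4 h with median centring (0.035 against -0.38). The Cyp51 means became -0.88 and -0.38 with median centring, 0.30 below and 0.20 above the median of all genes in that scaling. Between times it rose by 0.51 (SE 0.07, adjusted p = 0.00013) from 2 to 4 h and by 0.43 (SE 0.07, adjusted p = 0.00014) from 4 to 24 h, while the 0.17 (SE 0.07, adjusted p = 0.12) from 24 to 48 h was not called. Its probe lies at chr4:26775187-26775246 of rn3.

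Msmo1, the sterol C4-methyl oxidase, had the highest ratio at 24 h by each gene's brightest probe after loess; with median centring Hmgcs1 (0.75) lay above Msmo1 (0.64), and 1 dimmer probe of Insig1 was higher. It gave -0.24, -0.29 and -0.24 at 2 h, 0.23, 0.17 and 0.29 at 4 h, 1.80, 1.77 and 1.89 at 24 h, and 1.73, 1.78 and 1.82 at 48 h. All 2 h arrays lay below 0, and the late arrays overlapped each other, all far above those at 2 and 4 h. Msmo1 was 3.53-fold above the reference at 24 h (adjusted p = 1.0e-12). It rose by 0.49 (SE 0.06, adjusted p = 5.2e-05) from 2 to 4 h and by 1.59 (SE 0.06, adjusted p = 1.8e-10) from 4 to 24 h; the 4 h mean of 0.23 became -0.97 with median centring. Its probe lies at chr16:26716172-26716231 of rn3.

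Tm7sf2, a sterol C14 reductase that acts after Cyp51, had a different course from its neighbours. It gave -0.50, -0.33 and -0.30 at 2 h, -0.70, -0.44 and -0.47 at 4 h, -0.82, -0.51 and -0.60 at 24 h, and 0.45, 0.61 and 0.59 at 48 h. The arrays of the first 3 times overlapped below 0 and those of 48 h lay above 0. It rose by 1.20 (SE 0.09, adjusted p = 2.2e-06) from 24 to 48 h, the largest difference of any member in that step. Against the reference the 48 h mean of 0.55 became -0.60 with median centring, while the falls at the other times kept their direction.

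The remaining enzymes moved less. Nsdhl, which takes part in C4 demethylation, was 0.28 ± 0.05 at 24 h and 0.32 ± 0.07 at 48 h, and -0.04 and -0.02 with median centring. Agilent's processed signals gave 0.67 and 0.74 at these times and also called it at 4 h (0.35, adjusted p = 0.0033) and from 2 to 4 h (0.43, adjusted p = 0.025). Its rise of 0.19 (SE 0.06, adjusted p = 0.03) from 4 to 24 h lost its call without 1 of 3 arrays, the first at 4 h or the second or the third at 24 h (adjusted p = 0.065 to 0.13). Sc5d, a sterol desaturase, gave 0.01, -0.27 and -0.09 at 2 h, -0.13, -0.17 and -0.00 at 4 h, 0.45, 0.46 and 0.43 at 24 h, and 0.41, 0.25 and 0.48 at 48 h, so that the late arrays overlapped and lay above the early ones. It rose by 0.54 (SE 0.08, adjusted p = 8.8e-05) from 4 to 24 h, with late means of -0.06 and -0.15 under median centring. Dhcr7, which makes cholesterol from 7-dehydrocholesterol, gave -0.15, -0.14 and -0.18 at 2 h, -0.09, -0.10 and -0.02 at 4 h, 0.37, 0.59 and 0.56 at 24 h, and 0.63, 0.66 and 0.66 at 48 h. The 4 h arrays lay below 0 and the 24 h arrays above it. The lower value at 2 h lost its call without any 1 of its 3 arrays (adjusted p = 0.055 to 0.11). Dhcr7 rose by 0.58 (SE 0.06, adjusted p = 5.3e-06) from 4 to 24 h, and its late means of 0.51 and 0.65 became -0.15 and -0.06 with median centring. Ebp, a sterol isomerase, was lower at 4 h (-0.25 ± 0.03) and higher at 48 h (0.19 ± 0.13; -0.92 with median centring, and adjusted p = 0.068 without the third replicate), and rose by 0.27 (SE 0.07) from 4 to 24 h. Hsd17b7, a ketosteroid reductase of the pathway, stayed between -0.14 and 0.04 and was called only at 48 h (-0.14 ± 0.03, adjusted p = 0.035), a call lost without any 1 of the 3 arrays of that time (0.073 to 0.12).

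Among the sterol-sensing genes, Insig1, which retains SCAP in the endoplasmic reticulum and is itself a target of SREBP, rose with the enzymes. It gave 0.13, 0.09 and 0.14 at 2 h, 0.33, 0.39 and 0.33 at 4 h, 1.48, 1.39 and 1.49 at 24 h, and 1.65, 1.57 and 1.51 at 48 h. The 2, 4 and 24 h arrays did not overlap each other. It was 2.74-fold above the reference at 24 h (adjusted p = 6.5e-12) and rose by 0.23 (SE 0.06, adjusted p = 0.014) from 2 to 4 h and by 1.11 (SE 0.06, adjusted p = 3.8e-09) to 24 h. The means at 2 h (0.12) and 4 h (0.35) became -1.08 and -0.84 with median centring, and the 2 h call was lost without any 1 of its arrays (adjusted p = 0.074 to 0.17). The rise from 2 to 4 h lost its call without the second 4 h array (0.057).

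This was the brightest of 4 Insig1 probes, at chr4:2577508-2577567 of rn3, and the others gave larger early ratios. The probe at chr4:2578292-2578348 gave 0.57, 1.00, 2.04 and 2.05 at the 4 times, the probe at chr4:2578349-2578408 gave 0.41, 0.87, 1.72 and 1.70, and the probe at chr4:2578701-2578760 gave 0.32, 0.59, 0.92 and 0.98. All 4 probes were well above background on all 12 arrays in both channels, and the means of all 4 were higher at 4 h than at 2 h and higher at 24 h than at 4 h. No genome of build rn3 was used here, so their places in the transcript are not given.

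Insig2, the second INSIG gene, was 0.41 ± 0.02 at 24 h and 0.42 ± 0.02 at 48 h, against -0.01 ± 0.09 at 2 h and 0.05 ± 0.10 at 4 h. It rose by 0.36 (SE 0.06, adjusted p = 4.7e-04) from 4 to 24 h; the late means became -0.20 and -0.21 with median centring.

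Srebf1, whose product SREBP1 mainly drives fatty acid synthesis, first went down and then up. It gave -0.42, -0.29 and -0.42 at 2 h, -0.86, -0.90 and -0.77 at 4 h, 0.32, 0.45 and 0.44 at 24 h, and 0.89, 1.11 and 1.03 at 48 h, with no overlap between any 2 times. The 2 h call (adjusted p = 0.00014) was lost when the probes were averaged (-0.09, adjusted p = 0.15). Srebf1 fell by 0.47 (SE 0.07, adjusted p = 4.8e-04) from 2 to 4 h, then rose by 1.25 (SE 0.07, adjusted p = 1.0e-08) to 24 h and by 0.60 (SE 0.07, adjusted p = 6.4e-05) to 48 h; the 24 h mean of 0.40 became -0.45 with median centring. The 3 Srebf1 probes disagreed in size and, early, in sign. The probe at chr10:46477093-46477609, printed in 10 spots, gave 0.04, -0.34, 0.98 and 1.41 at the 4 times, whereas the dim probe at chr10:46475131-46475190 gave 0.08, 0.00, 0.11 and 0.12. The probe described in full lies at chr10:46475858-46475917.

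Srebf2, whose product SREBP2 mainly drives the cholesterol genes, was called at no time after loess: 0.13 ± 0.13, -0.04 ± 0.09, 0.13 ± 0.09 and 0.02 ± 0.03 at 2, 4, 24 and 48 h. Its difference of 0.17 from 4 to 24 h had a 95% interval of 0.01 to 0.33 (adjusted p = 0.097). Its 2 probes were dim, well above background on 10 and 5 of the 12 arrays, so that its level is poorly measured. Agilent's processed signals gave 0.71 at 24 h (adjusted p = 0.01) and a rise of 0.95 from 4 to 24 h (adjusted p = 0.018), both called, and the authors' deposited log2 values gave 0.18 at 24 h (adjusted p = 0.046). Scap was lower at 4 h (-0.47 ± 0.12) and not called at 24 h (-0.10 ± 0.11) or 48 h (-0.10 ± 0.17); it rose by 0.37 (SE 0.10, adjusted p = 0.0077) from 4 to 24 h. With the slide as a block, Scap was also called lower at 2 h (-0.19, adjusted p = 0.0069) and from 2 to 4 h (-0.28, adjusted p = 0.0087).

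**Figure D4:**
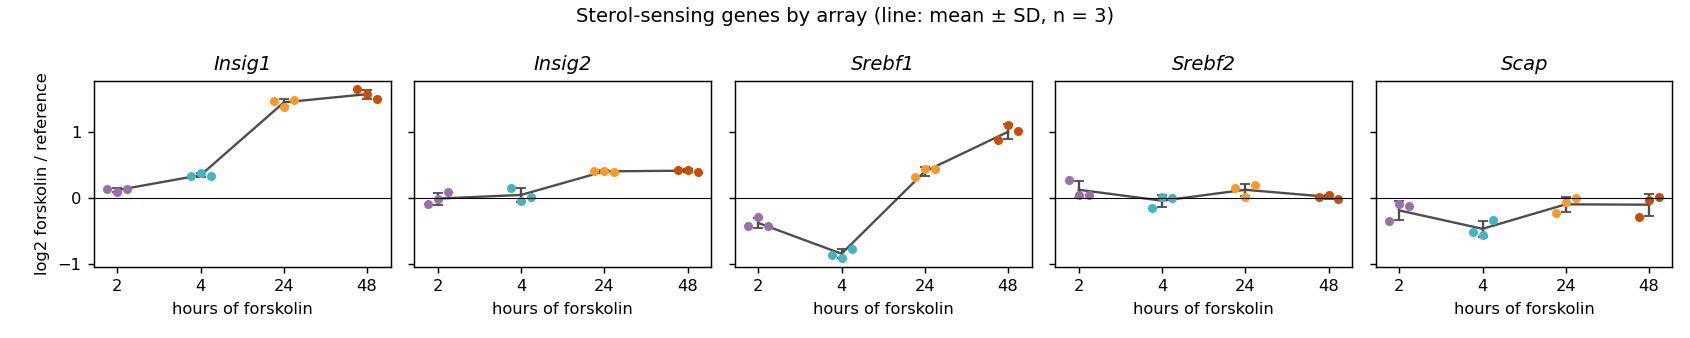
Log2 ratio of forskolin over reference (y axis) at 2, 4, 24 and 48 h (x axis, not to scale in time) for the 5 sterol-sensing genes, with 1 point per array and a line through the means with SD bars (n = 3). Insig1 rises to 1.58 at 48 h, Srebf1 falls to -0.85 at 4 h before rising to 1.01, and Srebf2 stays between -0.04 and 0.13.

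The receptors and transport genes followed other courses. Vldlr, a lipoprotein and reelin receptor, gave 0.25, -0.09 and 0.16 at 2 h, 0.53, 0.43 and 0.56 at 4 h, 0.41, 0.47 and 0.60 at 24 h, and 0.51, 0.20 and 0.21 at 48 h. All 4 h arrays lay above the 2 h ones, and the 4, 24 and 48 h arrays overlapped. It rose by 0.40 (SE 0.10, adjusted p = 0.013) from 2 to 4 h and was not called in later steps. The early rise lost its call without the second 2 h array (0.057) or the third 4 h array (0.053), and Agilent's processed signals gave 1.11 at 4 h (adjusted p = 1.2e-04). Its 48 h mean of 0.31 became -0.06 with median centring. Lrp8, the related apolipoprotein E receptor, was called at no time, with means between -0.11 and -0.01 and a 95% interval of -0.20 to 0.18 for 24 h minus 4 h.

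Npc2, which passes cholesterol out of the lysosome, gave 0.10, 0.13 and 0.18 at 2 h, 0.39, 0.50 and 0.52 at 4 h, 0.28, 0.59 and 0.47 at 24 h, and 0.40, 0.62 and 0.56 at 48 h. Its 2 h arrays lay below all others, which overlapped. The 2 h mean was called with the slide as a block (0.14, adjusted p = 0.025; -0.54 with median centring). It rose by 0.33 (SE 0.08, adjusted p = 0.013, and 0.056 without the third 4 h array) from 2 to 4 h, and its means of 0.47, 0.45 and 0.52 at the last 3 times became -0.27, -0.15 and -0.12 with median centring. Npc1, its partner in the lysosomal membrane, was called at no time by its brightest probe and lay between -0.12 and 0.05; a second, dimmer probe gave 0.03, 0.13, 0.10 and 0.15 and passed the threshold at 48 h in the fit of all probes (adjusted p = 0.022). Stard4, a cytosolic sterol carrier, was also called at no time against the reference (0.16 ± 0.03 at 4 h, -0.09 ± 0.16 at 24 h), although the mean of its late times was lower than that of its early ones by 0.20 (SE 0.07, adjusted p = 0.019). Its fall from 4 to 24 h (-0.25, adjusted p = 0.051) was called with the slide as a block (0.015), without background correction (0.0034) and with Agilent's processed signals (-1.17, adjusted p = 0.0055), which also gave called values of 0.50 at 4 h and -0.67 at 24 h. The 4 h value was called too with the slide as a block (adjusted p = 0.019), without background correction (0.0058) and without the third 2 h, the first 24 h or the first 48 h array (0.036 to 0.047).

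Abca1, which exports cholesterol to apolipoproteins, was well above background in the reference channel of no array. In the forskolin channel it was above background on 0, 3, 1 and 2 of 3 arrays at 2, 4, 24 and 48 h. It passed the filter on dim probes only through the forskolin channel at 4 h, where it was high. Its place among the members called higher is therefore not independent of that filter. At 4 h, with all 3 forskolin arrays above background, it was at least 1.33-fold higher than the reference. The floor was, on each array, the higher of the lowest signal well above background and the probe's own reference signal. At 4 h the probe's own signal set the floor, so that this bound equals the measured ratio. The same floor gave 1.19-fold at 24 h and 1.15-fold at 48 h. These are not firm bounds, because the forskolin channel was itself dim on some arrays of these times. The adjusted p-values in limma (1.2e-06, 6.1e-05 and 9.4e-05 at 4, 24 and 48 h) test the measured ratios against 0 and not the bounds. At 2 h Abca1 has no bound because both channels were dim. Its 2 h mean of 0.12 was still called higher in limma. That call was lost without any 1 of the 2 h arrays (adjusted p = 0.10 to 0.13), without background correction (0.24) and with Agilent's processed signals (0.27). The Abca1 difference from 4 to 24 h (-0.15) was called lower, but not without any 1 of the 2, 4 or 24 h arrays or the third 48 h array (adjusted p = 0.053 to 0.16). The measured means at 4, 24 and 48 h were 0.41, 0.26 and 0.25, and Agilent's processed signals gave 2.26, 1.40 and 2.15. Apoe, the apolipoprotein that carries cholesterol between neural cells, gave -0.26, -0.16 and -0.18 at 2 h, -0.50, -0.59 and -0.54 at 4 h, -0.32, -0.40 and -0.50 at 24 h, and -0.63, -0.50 and -0.34 at 48 h. Every array lay below 0, and the arrays of 4, 24 and 48 h overlapped. Apoe was 1.46-fold lower than the reference at 4 h (adjusted p = 1.8e-06) and fell by 0.34 (SE 0.08, adjusted p = 0.0071) from 2 to 4 h, a direction kept under each scaling.

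**Figure D5:**
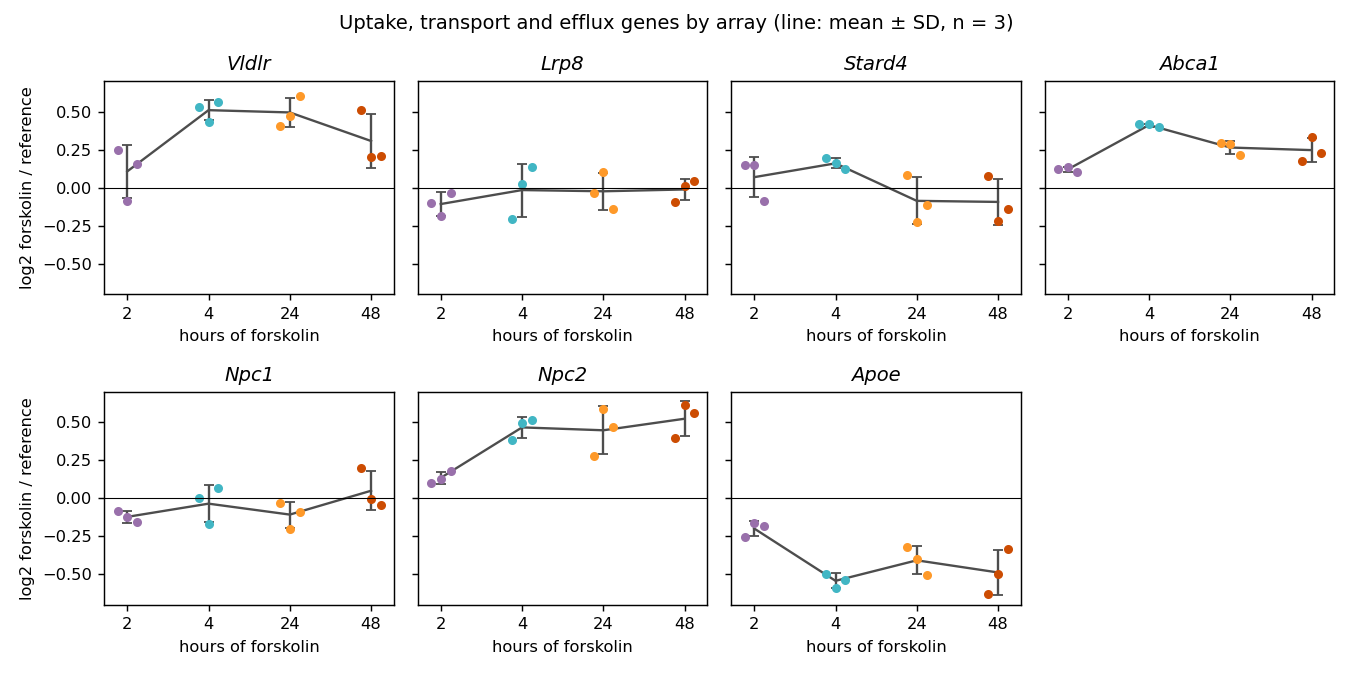
Log2 ratio of forskolin over reference (y axis) at 2, 4, 24 and 48 h (x axis, not to scale in time) for the 2 receptors and 5 transport genes, with 1 point per array and a line through the means with SD bars (n = 3). Vldlr, Npc2 and Abca1 reach 0.51, 0.47 and 0.41 at 4 h, Apoe falls to -0.54, and the others stay near 0.

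Genes of connected pathways were counted from lists that stand beside the members. These lists, too, were chosen with earlier results of these data known. Their counts after loess are read against the shares of all genes called higher and lower. These were 24.1% and 29.2% at 24 h, 19.5% and 30.1% at 4 h, and 21.0% and 17.8% from 4 to 24 h. With median centring the shares of all genes were 3.02% and 69.8% at 24 h, and 15.0% and 3.87% from 4 to 24 h. Of the lipogenic targets of SREBP1, 7 of 8 tested were called higher at 24 h and 1 (Gpam, -0.24) lower, with a median of 0.24. At 4 h 1 was called higher and 4 lower, and from 4 to 24 h 6 were called higher and 1 lower. With median centring 0 were called higher and 6 lower at 24 h, and 6 higher and 0 lower from 4 to 24 h. Scd, the stearoyl-CoA desaturase, was 0.77 ± 0.04 at 24 h and 1.32 ± 0.19 at 48 h, Fasn, the fatty acid synthase, was -0.37 ± 0.10 at 4 h, 0.39 ± 0.04 at 24 h and 0.65 ± 0.11 at 48 h, and Elovl6, a fatty acid elongase, was 0.63 ± 0.09 at 48 h; the late values became -0.72 and -0.53 for Fasn and -0.44 for Elovl6 with median centring. Acly, which makes cytosolic acetyl-CoA from citrate, was called higher at 24 h, at 1.06 ± 0.03 (-0.12 with median centring).

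Of the oxysterol and LXR genes, 5 of 12 listed passed the filter, all 5 were called higher at 24 h, and 4 of 5 were called higher from 4 to 24 h. With median centring 1 was called higher and 2 lower at 24 h, and again 4 of 5 higher from 4 to 24 h. Lpcat3, a phospholipid-remodelling enzyme, was 1.11 ± 0.11 and Nr1h3, which encodes LXR alpha, 0.69 ± 0.07 (-0.05 with median centring) at 24 h, while Abca2, a lipid transporter, went from -0.54 ± 0.05 at 4 h to 0.63 ± 0.07 at 48 h (-0.40 with median centring). Regulators of SREBP processing and partner factors were 2 higher and 5 lower of 11 tested at 24 h, and 0 and 7 with median centring. Prkaa1, a catalytic subunit of AMP-activated kinase, was -0.63 ± 0.03 at 24 h, and Nfyb, a subunit of NF-Y, was -0.63 ± 0.07 at 48 h. Enzymes of the branches after mevalonate were 2 higher and 3 lower of 10 at 24 h, shares near those of all genes. With median centring they were 0 and 8, where 69.8% of all genes were called lower. Sterol carriage and lysosome genes were 5 higher and 3 lower of 9 at 24 h, and 0 and 5 with median centring. Gramd1a, a sterol carrier between membranes, was 0.59 ± 0.05 at 24 h and 0.86 ± 0.05 at 48 h, and -0.25 and -0.05 with median centring.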

How the data were processed

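Rat arrays with 2 colours were used for 12 samples, 3 at each of 4 times of forskolin. Per the file headers, the scans were quantified in Feature Extraction (version 9.5.1.1); the authors deposited the intensity (mean, with the median of the local background) of 45018 spots per array in Cy3 (green, the forskolin sample) and Cy5 (red). A second deposited table holds the authors' log2 values, which ran as red over green and had column medians of 0.007 to 0.012. The submitters' processing notes name limma; how that table was normalized was not stated in the labels or headers.

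With limma 3.58.1 in R 4.3.3 (tables read with version 1.17.8 of data.table), intensities were background-corrected (normexp, offset 50) and loess-normalized per array, giving control spots no weight. Log2 green over red was averaged over the unflagged spots of a probe. Of 41012 probes, 20631 were clearly above background in 1 or both channels on the 3 arrays of some time; a gene took its brightest kept probe. RefSeq genes of GRCr8 gave current names by accession for 10735 probes, by symbol for 5571, by other accessions for 91 and by synonym for 3703, while 20912 probes kept their deposited name. Probe positions are on rn3, per the file headers.

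Means per time were fitted with lmFit and eBayes (8 residual degrees of freedom); p-values were adjusted by Benjamini-Hochberg over all genes, with calls under 0.05. The reference counted as 1 control, without its own spread. The fit was tested on simulated data. Members called with a change of 0.5 or more on the log2 scale, against the reference or between successive times, are given by array; their other probes are given by means, and of other lists up to 4 called genes with the largest change. The members and lists were chosen with earlier results of these data known. Alternatives were other background corrections, scalings, filters, probe summaries and eBayes settings, the slide as a block, and each array left out.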

Additional observations from a re-analysis of the deposited data

Results flagged for a closer look

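The members' changes differed between successive times, by the test of the difference itself, for 12 members between 2 and 4 h, 22 between 4 and 24 h and 6 between 24 and 48 h.

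For 10 members the change against the reference was called in opposite directions at different times, and the difference between the times was tested. The members were picked by these calls, and the times compared were each member's highest and lowest. The adjusted p-values below do not allow for that choice and are not separate support. With median centring in place of loess, 4 of the 10 (Hmgcs1, Sqle, Msmo1 and Srebf1) still had opposite signs at these times, and the others lay below 0 at both; under each of the other 4 scalings all 10 had opposite signs. The 2 h calls of Dhcr7, Hmgcs1 and Sqle, the 4 h call of Ggps1 and the 48 h call of Ebp also depended on single arrays. Acat2 was -0.20 at 2 h and 0.405 at 48 h (difference 0.61, adjusted p = 9.9e-07), Hmgcs1 -0.20 at 2 h and 1.81 at 48 h (2.01, adjusted p = 2.4e-10), and Mvd -0.37 at 4 h and 0.99 at 48 h (1.36, adjusted p = 5.9e-10). Sqle was -0.14 at 2 h and 1.14 at 24 h (1.28, adjusted p = 5.3e-10), Msmo1 -0.26 at 2 h and 1.82 at 24 h (2.08, adjusted p = 2.3e-11), and Dhcr7 -0.16 at 2 h and 0.65 at 48 h (0.81, adjusted p = 1.7e-07). Ebp was -0.25 at 4 h and 0.19 at 48 h (0.44, adjusted p = 1.0e-04), Srebf1 -0.85 at 4 h and 1.01 at 48 h (1.85, adjusted p = 1.5e-10), and Tm7sf2 -0.64 at 24 h and 0.55 at 48 h (1.20, adjusted p = 2.2e-06). Ggps1 ran the other way, from 0.14 at 4 h to -0.20 at 24 h (a difference of 0.34 between 4 h and 24 h, adjusted p = 5.7e-04).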

How the results depend on the processing

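Leaving out each array in turn gave 5 to 14 called members at 2 h, 17 to 19 at 4 h, 23 to 25 at 24 h, 23 to 26 at 48 h, 10 to 14 from 2 to 4 h, 19 to 23 from 4 to 24 h, 4 to 8 from 24 to 48 h, 23 to 24 late against early and 25 to 27 by the F test, whose alternatives were chosen after seeing the data. With median centring in place of loess, 27 members were called at 2 h (26 lower), 1 from 2 to 4 h and 2 from 24 to 48 h, and 18 by the F test. At 2 h 1.26% of all genes were called higher and 75.9% lower in that setting. The shares were 0.629% and 1.37% from 2 to 4 h, and 0.916% and 0.64% from 24 to 48 h. The same setting turned 43 values against the reference: at 2 h Idi1 -1.09, Fdps -1.06, Ggps1 -0.68, Cyp51 -0.88, Vldlr -0.26, Insig1 -1.08 and Npc2 -0.54; at 4 h Hmgcs1 -0.62, Pmvk -0.82, Idi1 -0.88, Fdps -0.82, Ggps1 -0.65, Sqle -0.92, Cyp51 -0.38, Msmo1 -0.97, Nsdhl -0.24, Hsd17b7 -0.49, Insig1 -0.84, Insig2 -0.65 and Npc2 -0.27; at 24 h Acat2 -0.94, Mvd -0.31, Idi1 -0.30, Nsdhl -0.040, Ebp -1.03, Sc5d -0.056, Dhcr7 -0.15, Insig2 -0.20, Srebf1 -0.45 and Npc2 -0.15; at 48 h Acat2 -0.73, Mvk -0.050, Mvd -0.15, Idi1 -0.54, Tm7sf2 -0.60, Nsdhl -0.024, Ebp -0.92, Sc5d -0.14, Dhcr7 -0.058, Vldlr -0.055, Insig2 -0.21, Npc1 -0.45 and Npc2 -0.12. These 43 were called in 1 or both of the fits, and a further 20 member values changed sign with median centring without a call in either. No called value changed sign under any other alternative. Apart from median centring, each member value was counted once per alternative, so that the same value can count several times. On that count 85 lost their call, 39 gained one and 4412 did neither. Each slide held the arrays of 1 replicate number. The labels do not say that the number marks a shared batch. With this number as a replicate block, 15, 19, 24 and 26 members were called at the 4 times, 14, 23 and 6 in the successive steps, 24 late against early and 27 by the F test. Same-numbered samples deviated together with r from 0.05 to 0.47, over 0.1 in 14 of 18 pairs (median 0.22, against -0.21 for the 36 differently numbered pairs). The fit without the block was kept because 4 pairs lay at or below 0.1, although all 18 same-numbered pairs had r above 0. A deviation shared by the arrays of a slide therefore stays in the spread of that fit. The block added 7 calls and removed none. At 2 h they were Mvd (-0.11), Scap and Npc2, and at 4 h Stard4. Between times they were Tm7sf2 (-0.16) and Scap from 2 to 4 h, and Stard4 from 4 to 24 h. Signal over background limits the dim probes, among them Srebf2, Stard4, Abca1, Lss, Nsdhl and Vldlr, whose values moved with Agilent's processed signals (Lss at 24 h from 0.37 to 0.97; Srebf2 at 2 h from 0.13 to -0.03).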
